A study of Capsella rubella with 6 samples.

Results

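Intron sites are single-base differences between the parents of a cross that lie inside a gene interval but in none of the gene's exon intervals. They were taken from the authors' annotated SNP tables, as the sites with a gene interval and no exon interval. Of 71169 sites in those tables, 14177 (19.9%) were intron sites, and the maternal and paternal base could be assigned at all 14177. Nearly all of these intron sites had at least 1 read over the 4 libraries, so the numbers describe sites that were read. Intron differences that no read covered are hardly among them, and their number is not known here. The intron sites lay in 5715 genes, of which 3946 also held exon sites. The 20458 exon sites of those genes served as the comparison for read depth and maternal share. Rates of calls at exon sites, reads in genes per library and tests of exon against exon used exon sites of all genes.

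The RNA came from endosperm of crosses between 2 accessions of *Capsella rubella*, a small selfing crucifer related to Arabidopsis. The accessions were Cr48.21, called Cr A, and Cr75.2, called Cr B, and no other genotype or treatment was involved. Cr A x Cr B and Cr B x Cr A had 2 libraries each, all from dissected endosperm at 6 days after pollination. Each library pooled 300 to 500 seeds, so a value is an average over seeds. The female parent was read as the first name of each cross, which the labels do not state. The maternal share is the same either way, but results by accession would swap Cr A with Cr B if the reading were wrong. No label ties the replicates to separate plants, and a p-value here reflects the spread between pools of seeds, which may be technical. The gene intervals carry no names, so seed coat, embryo and endosperm marker genes could not be looked up, and genes are given here by scaffold and position in the authors' coordinates, for which the build was not given in the sources used here.

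Introns are removed from the primary transcript by splicing and are then mostly degraded, so in RNA selected for poly(A) tails they are usually covered by few reads. Reads in an intron can come from unspliced or partly spliced precursor RNA, from an intron that is kept in the mature transcript, from an exon missing in the annotation, or from another transcript that overlaps the gene. These sources cannot be told apart here, because the library kit named in the protocol does not mark strand and the files hold base counts at single positions. Endosperm is formed after a double fertilisation and carries 2 maternal genomes for 1 paternal genome. A gene expressed equally from every copy therefore gives a maternal share of 66.7% of its allelic reads, the reads that show the maternal or the paternal base. Endosperm is also the main tissue of genomic imprinting in plants, in which a gene is transcribed mainly from the copy of one parent.

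By position, about as many sites lay between listed exons as elsewhere in the gene. Of the 14177 sites, 7026 (49.6%) lay between listed exons of their gene, 2811 before the first and 1853 after the last listed exon. For another 2487 sites (17.5%) the gene had no listed exon, since the tables list an exon only where a site falls in it. Among genes with exon sites, the listed exons reached the start or the end of the gene interval in 78.7%, so the exon intervals included gene ends. A gene with a listed intron site held a median of 1 such site and at most 46, and 758 genes held 5 or more. Neighbouring sites share reads: 4407 intron sites (31.1%) had another intron site of their gene within 50 bp, and a read over several sites was counted at each.

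Read depth at intron sites was far below that at exon sites of the same genes. Summed over the 4 libraries, intron sites had a median of 7 allelic reads, with a middle 50% of sites from 2 to 22 reads and a maximum of 16915. Exon sites of the same genes had a median of 402 reads, with a middle 50% from 111 to 1061. Nearly all listed sites of both kinds had at least 1 read. These depths are thus those of sites that were read, and not of all differences between the parents. All 4 libraries had a read at 35.8% of intron sites, against 90.1% of exon sites. A few sites held most of the intron signal: the top 10% of intron sites carried 71.8% of all intron reads, and the top 5 sites carried 7.81%. In the plot of read depth the intron curve lies above that of sites outside genes up to 20 reads and below it from 50 reads on.

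**Figure D1:**
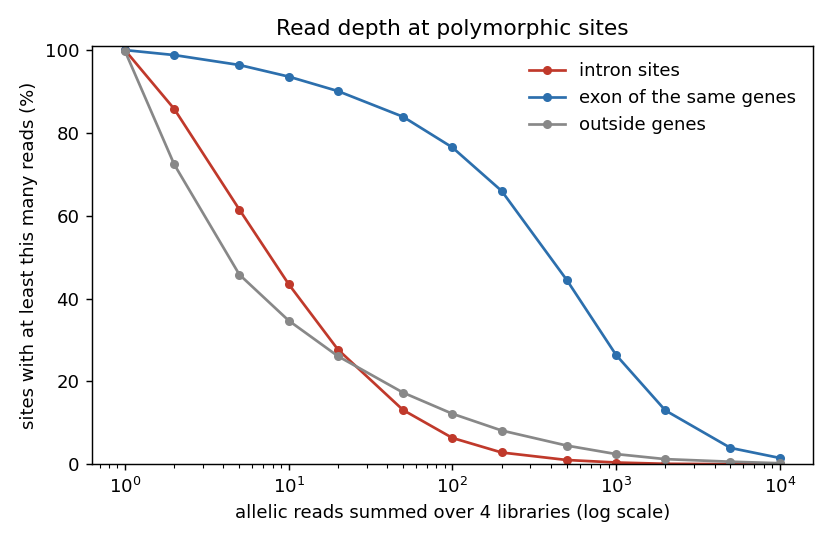
Share of sites (vertical axis, %) with at least a given number of allelic reads summed over the 4 libraries (horizontal axis, log scale), for intron sites, exon sites of the same genes and sites outside genes. At 20 reads or more remain 27.7% of intron sites, 90.1% of exon sites and 26.1% of sites outside genes.

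The intron fraction was alike in the 4 libraries. Intron sites held 92411 reads in Cr A x Cr B replicate 1 and 157204 in replicate 2, and 124776 and 151784 in Cr B x Cr A replicates 1 and 2. These were 1.22%, 1.44%, 1.41% and 1.40% of the allelic reads in genes, in the same order. Replicate 1 of Cr A x Cr B, the library with the fewest allelic reads (8122586, against 9524755 to 11702084 in the others), thus also had the lowest share. The share differed as much between replicates of Cr A x Cr B as between any libraries. Sites outside genes held 6.63% to 7.31% of all allelic reads.

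Within a gene, an intron site was typically covered at a small percentage of the depth of an exon site. Over 3257 genes with at least 100 exon reads per site, mean reads per intron site were a median of 1.45% of mean reads per exon site. Intron differences without a read hardly enter this value, so it holds for the listed sites only. The middle 50% of genes ran from 0.588% to 3.68%, and the top 10% began at 10.7%. In 54 genes the intron level reached 50% of the exon level, and in 13 genes it reached 100%. Median depth over sites did not fall with distance from the nearest listed exon: it was 6 reads at 1 to 10 bp, 8 reads at 201 to 500 bp and 6 reads beyond 1000 bp. Exons without a site are not listed, so the nearest exon may lie closer, and a fall with distance from it could not be seen. Along the gene the median rose slightly from 6 reads in the first 20% of the interval to 9 in the last 20%, and at exon sites it was 254 in the first and 442 in the last.

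The 5 genes with the most-read intron site showed how unequal that signal was. The deepest site lay at scaffold 2, position 6487210, in the gene at 6486540 to 6488312, 520 bp past its last listed exon. It had 3855 and 5509 reads in Cr A x Cr B and 3405 and 4146 in Cr B x Cr A, with maternal shares of 65.9%, 64.5%, 66.8% and 66.8%, close to dosage in every library. The next, at scaffold 4, position 6086230, had 8838 reads in all in a gene with no listed exon, and maternal shares of 67.3%, 70.5%, 67.4% and 72.2%. At scaffold 3, position 10547462 (6432 reads, between exons) the shares were 61.6% and 63.2% in Cr A x Cr B but 80.1% and 74.1% in Cr B x Cr A. These groups did not overlap, yet its accession term had an adjusted p of 0.0515 (edgeR quasi-likelihood test). The other two, at scaffold 3, position 5134351 (3812 reads) and scaffold 2, position 7833887 (3020 reads), had shares of 61.3% to 70.8% and of 37.8% to 74.4%. The 37.8% came from Cr B x Cr A replicate 1 alone, against 67.4% or more in the other libraries.

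The genes with most intron sites were not those with most intron reads. The gene at scaffold 5, 7855639 to 7886427, 30789 bp long, held 46 intron sites with a median of 1.5 reads and 77 exon sites. Its summed intron reads were 66, 79, 64 and 118 in the 4 libraries, with maternal shares of 57.6%, 67.1%, 42.2% and 80.5%, beside exon shares of 65.9%, 65.4%, 74.6% and 74.7%. At these counts the intron shares of replicates of one cross lay further apart than those of the exons. The gene at scaffold 1, 16892508 to 16899355, with 26 intron sites, had intron shares of 82.7% and 82.6% in Cr A x Cr B against 37.8% and 53.4% in Cr B x Cr A, while its exon shares lay between 66.8% and 74.0%. Another, at scaffold 1, 9168864 to 9182351, had 25 intron sites with a median of 1 read, and 10 to 23 intron reads a library.

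The maternal share at intron sites lay near the dosage of endosperm in every library. At sites with at least 20 reads in the library, the median intron share was 71.0% and 68.2% in Cr A x Cr B replicates 1 and 2, and 71.8% and 74.1% in Cr B x Cr A replicates 1 and 2. Exon sites of genes with an intron site of any depth had medians of 68.9%, 66.9%, 70.1% and 72.8%. The intron medians rested on 791, 1437, 1111 and 1401 sites and the exon medians on 14887, 15981, 15268 and 16250. After the read minimum the medians thus did not cover the same genes. The intron medians averaged 69.6% ± 1.98 in Cr A x Cr B, and for the reverse cross 72.9% ± 1.63 (both SD, n = 2). Both site classes were thus lowest in Cr A x Cr B replicate 2 and highest in replicate 2 of Cr B x Cr A. Intron medians were higher by 1.57 ± 0.39 percentage points (SD, n = 4), in 4 of 4 libraries, with an exact sign-flip permutation p of 0.13, two-sided, the smallest that 4 libraries allow. The difference did not hold within genes in every library: the median intron minus exon difference was -0.02 and -0.83 points in Cr A x Cr B and 2.22 and 2.16 points with Cr B as the first parent (exact two-sided p = 0.5). When reads were summed over sites, the intron share was 68.4% and 66.7% in Cr A x Cr B, above the exon share of 67.2% and 65.5%, but 69.0% and 71.1% in Cr B x Cr A, below the 69.9% and 72.0% of exons.

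**Figure D2:**
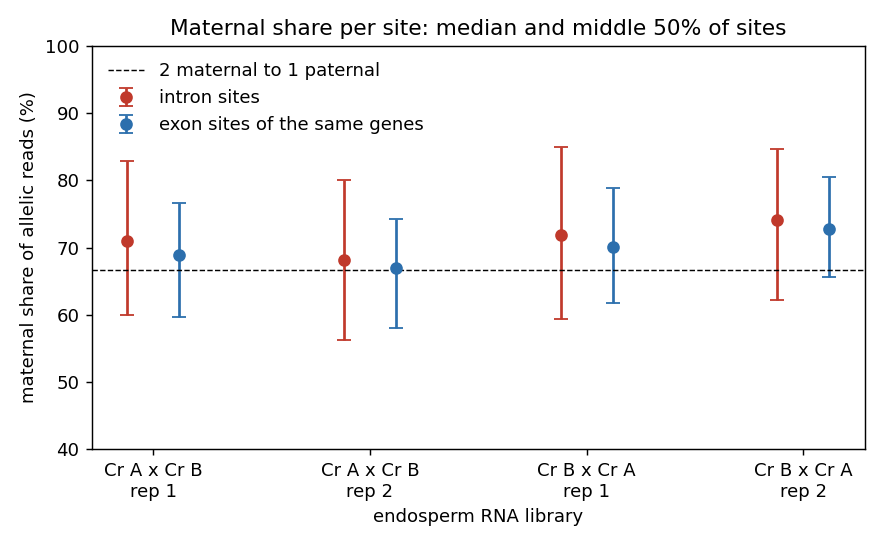
Maternal share of allelic reads (vertical axis, %) in each of the 4 libraries (horizontal axis), at sites with at least 20 reads in that library. Points are medians over sites, bars span the middle 50% of sites, and the dashed line marks 66.7%. The intron median lies above the exon median in 4 of 4 libraries, and the intron bars are wider.

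Intron shares also spread more widely than exon shares. In replicate 1 of Cr B x Cr A the middle 50% of intron sites ran from 59.4% to 85%, and that of exon sites from 61.7% to 78.8%. Intron sites had fewer reads, which widens the spread of a share, and the part of depth in this difference was not tested.

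The cross was designed to separate alleles favoured by parent of origin from alleles favoured by accession. Each site with at least 20 reads in each cross was tested for a departure from 2 maternal to 1 paternal reads (edgeR quasi-likelihood test over all 32306 such sites, Benjamini-Hochberg adjusted p below 0.05). Of the 14177 intron sites, 1807 (12.7%) could be tested. Of these, 25 sites (1.38%) in 23 genes were more maternal than dosage and 11 sites (0.609%) in 10 genes were less maternal. The background over all tested sites was 3.94% more maternal and 1.13% less maternal, and at exon sites of all genes it was 3.60% and 1.12%. Both intron rates lay below the background, at lower depth, and the difference in rate was not tested. At an unadjusted p below 0.05 there were 128 intron sites (7.08%), against 13.9% of all tested sites and 13.7% of exon sites. The counts rested on every library: without Cr A x Cr B replicate 1 or 2 or Cr B x Cr A replicate 1 or 2, in that order, 16, 15, 9 and 8 sites were called more maternal and 7, 4, 5 and 5 less maternal.

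Among the 25 more maternal intron sites, 20 had reads in all 4 libraries and were 85% maternal or more in each, and 9 had no paternal read at all. Those 9 sites had 69 to 187 reads, at which a count of 0 allows a paternal share of up to 4.35% to 1.60% (3 reads of the total, counting error only). Genes with no listed exon held 11 of the 25 sites. Exon reads were available for 14 of the sites, and at 7 of them the exons were also at 85% or more in every library.

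The site with the largest fitted value among those with at least 50 reads in every library was at scaffold 5, position 12504040, in the gene at 12503139 to 12505885 on the plus strand, before its first listed exon. It had 87, 108, 75 and 180 reads, with maternal shares of 100%, 100%, 100% and 99.4%. Only 1 of 450 reads was paternal, a maternal share of 99.8% (95% exact interval 98.8% to 100%, for counting error only, over reads pooled from 4 libraries). The exon reads of that gene were 99.6% to 100% maternal in the 4 libraries (adjusted p of the intron site 0.000783), so intron and exon gave the same picture.

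At scaffold 6, position 7574035, in a gene with no listed exon at 7573428 to 7575648 on the minus strand, the shares were 96.5%, 97.3%, 95.3% and 96.3% over 57, 339, 382 and 347 reads. The log2 departure from dosage was 3.78 ± 0.26 (SE, adjusted p = 0.000208), and the 4 libraries lay close together. A gene at scaffold 4, 1178732 to 1179532, on the minus strand held a pair of called sites, at 1178826 and 1178859, both between exons. The first had shares of 98.6%, 90.8%, 96.8% and 98.4% (log2 3.77 ± 0.44 SE, adjusted p = 0.00262), and the second had 98.1%, 97.9%, 98.2% and 97.4%. The first lay 17 bp from a listed exon and had 141, 76, 310 and 64 reads. The 3 exon sites of the gene together had 323, 353, 614 and 234. The first site was thus read far more deeply than a typical intron site. Leaving out replicate 1 of Cr B x Cr A gave the first site an adjusted p of 0.054. The exons of this gene were less one-sided, with 85.1%, 83.3%, 91.7% and 75.2%.

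The other named calls on this side were less one-sided. At scaffold 4, position 60424, in a gene of 60287 to 60696 with no listed exon, the shares were 88.7%, 94.4%, 88.4% and 93.3% (log2 2.33 ± 0.28 SE, adjusted p = 0.003). At scaffold 3, position 1257613, in the gene at 1254602 to 1259102, they were 88.5%, 86.5%, 75.2% and 72.4%, above exon shares of 71.0%, 66.8%, 59.3% and 64.7% in each library. That call (log2 1.14 ± 0.23 SE, adjusted p = 0.0338) was lost without any one of the 4 libraries, with adjusted p from 0.117 to 0.163, and against the median ratio of all sites in place of 2 to 1 (adjusted p = 0.076).

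The site at scaffold 4, position 7513233, met the rule for parental bias although its alleles followed the accession. It had 161, 230, 411 and 284 reads, and maternal shares of 28.0% and 26.1% in Cr A x Cr B but 100% and 100% in Cr B x Cr A. Bases of Cr B prevailed in both directions, and no Cr A read appeared among 695 reads of Cr B x Cr A, which allows up to 0.432%. Its exons showed the same, at 25.5%, 16.6%, 100% and 99.9%. The fitted parental value was therefore an average over directions that did not overlap.

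Among the 11 less maternal intron sites, 6 were at 50% or less in every library. All 8 of these 11 sites whose gene had exon reads lay in genes with exon shares of 50% or less in every library. Intron and exon reads of these genes thus leaned to the same parent.

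The largest fitted departure was in the gene at scaffold 7, 11097355 to 11102864, on the minus strand. Sites with fewer reads had as low a share, such as scaffold 8, position 1824998, with 41 paternal of 43 reads. At position 11099274, 6 bp from an exon, the maternal share was 2.66%, 1.79%, 3.27% and 11.9% over 188, 446, 245 and 387 reads (log2 -5.58 ± 0.36 SE, adjusted p = 0.000158). At 11099178, 102 bp from an exon, it was 0.926%, 0.847%, 5.36% and 12.3% over 108, 118, 56 and 122 reads. The exon sites together gave 1.12%, 2.15%, 2.89% and 18.4%. Cr B x Cr A replicate 2 was the highest library at intron and exon sites alike, and it was also the library with the highest median maternal share over all sites. Position 11099274 had 1266 reads in all, more than any exon site of the gene (427 to 959 reads). It was thus read far more deeply than a typical intron site. The other 3 intron sites of the gene had 5 to 7 reads each, all paternal.

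**Figure D3:**
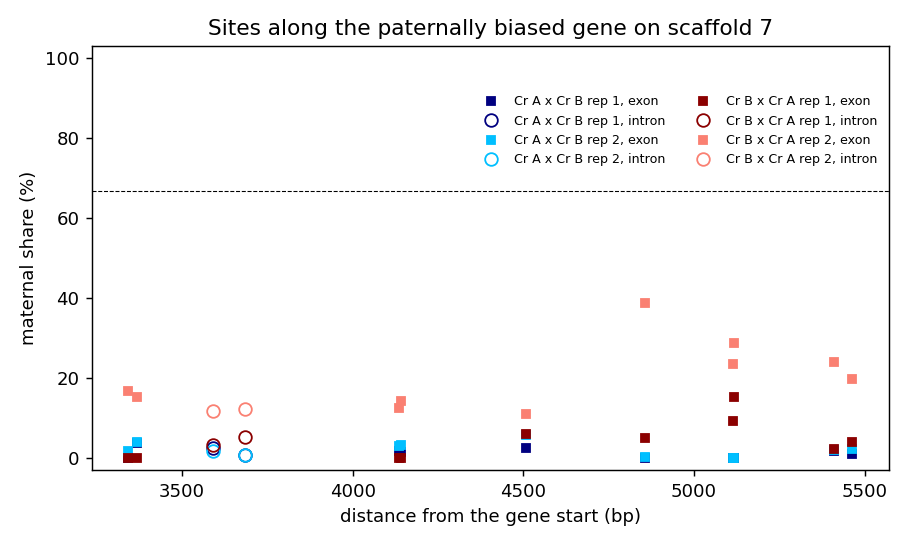
Maternal share (vertical axis, %) at single sites of the gene on scaffold 7, 11097355 to 11102864, against distance from its start (horizontal axis, bp), for library values of at least 10 reads. Open circles are intron sites, filled squares are exon sites, and colours are libraries. All points lie below 40%, under the dashed line at 66.7%, and Cr B x Cr A replicate 2 lies highest at both kinds of site.

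A milder case was scaffold 7, position 620160, in a gene with no listed exon at 619655 to 622257, with 43.7%, 41.0%, 32.3% and 50.6% over 87, 268, 62 and 235 reads. Its log2 departure was -1.44 ± 0.25 (SE, adjusted p = 0.0167), and the call was lost when either replicate of Cr A x Cr B was left out (adjusted p = 0.0638 and 0.0888) or replicate 1 of Cr B x Cr A (0.0683). No other less maternal site had 50 reads in every library outside the scaffold 7 gene described above. The authors' deposited table gave a p-value below 0.05 in all 4 of its comparisons for 11 of the 25 more maternal sites, 7 of the 11 less maternal sites and 123 of the 1807 tested intron sites.

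The introns of genes chosen by their exon reads were then described. In 66 genes with intron sites, the exon share was at least 85% in every library, and 16 of these had enough intron reads to compare. Their summed intron share had a median of 97.4%, ranged from 68.6% to 100%, and was 85% or more in 14 of 16. In 23 genes the exon share was 50% or less in every library, and 15 had enough intron reads. Their intron share had a median of 22.4%, ranged from 5.2% to 57.5%, and was 50% or less in 14 of 15. Among 918 genes with exon shares between those bounds the intron median was 69.4%, with 17 genes at 85% or more and 14 at 50% or less. Introns of genes with one-sided exons were thus mostly one-sided in the same direction.

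The same genes can be read as a relation across genes. Over 176 genes with enough reads in both parts, the fitted parental log2 ratios of intron and exon reads had a Pearson r of 0.79 and a Spearman rho of 0.36, with a median absolute difference of 0.2. The fitted accession log2 ratios had r = 0.44 and rho = 0.44, with a median absolute difference of 0.46. A few genes lie far from the rest on the parental scale, and the rank correlation is lower. Genes are not independent replicates, and intron and exon values of a gene share their libraries, so these are descriptions.

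A direct test asked, within each library, whether the parental ratio of intron reads differed from that of exon reads of the gene. It covered 1238 genes with at least 20 intron and 20 exon reads in each cross. By edgeR's quasi-likelihood test, 1 gene was more maternal in introns (0.0808%) and 1 was less maternal (0.0808%), together 0.162% of genes tested. At an unadjusted p below 0.05 there were 53 genes (4.28%), and in the same test of exon against exon 114 of 3150 (3.62%). Over the genes tested the median difference was 0.06 on the log2 scale. For scale, 1 listed exon was set against the other exons of its gene, a comparison added after the data were seen. The exon was that with fewest reads among those with at least 20 reads in each cross. This gave 1 gene of 3150 (0.0317%).

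The gene with less maternal introns lay at scaffold 4, 1180130 to 1180974, on the minus strand, next to the maternal gene on scaffold 4 described above. Its exon reads were 99.4%, 98.8%, 97.6% and 98.9% maternal over 7440, 5348, 1272 and 2033 reads. Its introns gave 88.0%, 86.7%, 58.9% and 45.3% over 50, 188, 90 and 150 reads, from a pair of sites 4 bp apart that share reads. The intron share lay below the exon share in 4 of 4 libraries, by a log2 ratio of -4.86 ± 0.47 (SE, adjusted p = 0.00028). It also lay on different sides of 66.7% in the crosses. The call was lost without replicate 1 or 2 of Cr A x Cr B. The log2 ratio was then -4.71 and -5.09, in fits with fewer residual degrees of freedom.

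The gene with more maternal introns lay at scaffold 6, 8681694 to 8685635, on the plus strand. It is named as the only call in its direction, after its values were seen, since its fewest reads were 49. Its introns were 95.9%, 90.9%, 97.8% and 94.9% maternal over 49, 99, 91 and 98 reads, and its exons 46.7%, 39.8%, 56.6% and 75.9% over 409, 664, 309 and 775 reads. The exon sites were not uniform. Site 8684600 gave 48.4%, 40.9%, 41.7% and 45.1%, while site 8685347 gave 34.6%, 25.3%, 93.5% and 95.5%, and its neighbours at 8685326 and 8685359 were also higher in Cr B x Cr A. The summed share thus mixes unlike sites. Nearly all of the intron reads came from 1 site, at 8682682, ahead of the first listed exon. The ratio differed by 3.95 ± 0.58 on the log2 scale (SE, adjusted p = 0.0112), in the same direction in 4 of 4 libraries. The call was lost without Cr A x Cr B replicate 1, Cr A x Cr B replicate 2 or Cr B x Cr A replicate 1. The log2 difference was then 3.8, 4.21 and 3.39, in fits with fewer residual degrees of freedom.

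More intron sites were called by accession of the allele than by parent. Of the 1807 tested intron sites, 113 (6.25%) had more reads from the Cr A allele and 158 (8.74%) more from the Cr B allele, beside 6.53% and 11.9% over all tested sites (edgeR quasi-likelihood test). Leaving out Cr A x Cr B replicate 1 or 2 or Cr B x Cr A replicate 1 or 2, in that order, gave 72, 50, 47 and 46 sites from Cr A and 74, 32, 60 and 56 from Cr B. The median fitted value was -0.11 on the log2 scale at intron sites and -0.10 over all sites. Sites between exons were called at 8.39% and 11.6%, and sites in genes with no listed exon at 2.93% and 5.12%; the difference was not tested.

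On the Cr A side, the site at scaffold 1, position 1968793, in a gene with no listed exon at 1967776 to 1969933, had maternal shares of 100% and 97.5% in Cr A x Cr B and of 3.09% and 0.943% in Cr B x Cr A. Nearly all of its 479 reads carried the Cr A base in both directions (log2 5.57 ± 0.43 SE, adjusted p = 0.000419). The site at scaffold 7, position 110621, in the gene at 107963 to 117882, gave 98.4%, 95.2%, 22.0% and 13.3% (log2 3.54 ± 0.34 SE, adjusted p = 0.000826). The exons of that gene, with 21 sites, gave 69.1%, 71.5%, 61.1% and 76.7%, near dosage in both directions. The site at scaffold 6, position 568745, in a gene with no listed exon at 567078 to 568979, gave 93.8%, 97.7%, 11.2% and 25.6% (log2 3.43 ± 0.35 SE, adjusted p = 0.00111). At all 3 sites the crosses did not overlap, which follows from choosing sites by the accession term and is no further support.

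On the Cr B side, the site at scaffold 4, position 7513233, described above, had the largest fitted value (log2 -6.71 ± 0.38 SE, adjusted p = 0.000305). The site at scaffold 5, position 11817389, in the gene at 11817168 to 11818856, gave 19.4% and 78.6% in Cr A x Cr B, against 98.3% and 94.6% in Cr B x Cr A. Its replicates of Cr A x Cr B lay far apart, while its exons gave 23.3%, 22.7%, 96.8% and 95.8%. The call (log2 -2.68 ± 0.67 SE, adjusted p = 0.0304) was lost without Cr A x Cr B replicate 1, Cr B x Cr A replicate 1 or Cr B x Cr A replicate 2, at adjusted p of 0.066, 0.193 and 0.109, and its fitted value was -1.57 without the first of these. The site at scaffold 7, position 161604, in the gene at 161208 to 162823, gave 59.0%, 37.8%, 92.1% and 90.1%, close to its exons at 52.2%, 45.1%, 83.5% and 87.2% (log2 -1.74 ± 0.31 SE, adjusted p = 0.00859). Leaving out replicate 1 or 2 of Cr B x Cr A gave it an adjusted p of 0.0568 or 0.0556.

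**Figure D4:**
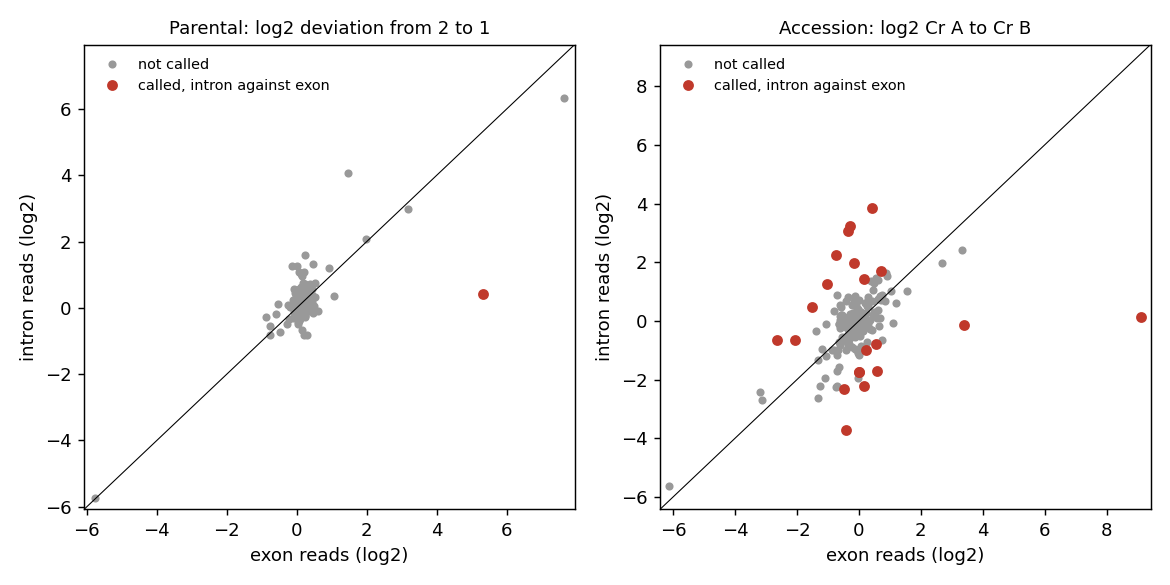
Fitted log2 ratios of intron reads (vertical axis) against exon reads (horizontal axis) for 176 genes, for the parent of the allele relative to 2 to 1 (left) and for Cr A relative to Cr B (right). Red points are genes called in the test of intron against exon (1 on the left, 21 on the right), and the line marks equality.

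The accession ratio differed between introns and exons in a small part of the genes, at a rate close to that between exons of a gene. Of 1238 genes, 98 (7.92%) were called by edgeR's quasi-likelihood test, 45 (3.63%) with introns more Cr A than exons and 53 (4.28%) with introns more Cr B. Of these 98 genes, 87 had the intron ratio further from equality than the exon ratio, 11 had the exon ratio further, and 39 had ratios of opposite sign. The genes were called for a gap between these ratios, and the split was not set against one over all 1238 genes. It is therefore not read as a trait of introns. Intron sites had fewer reads, which widens the spread of a ratio, and the part of depth was not tested. The same test of one exon against the other exons of its gene gave 241 of 3150 genes (7.65%). That test covered a different set of genes and was not matched to introns in depth, so the rates are not like for like. The calls depended on all libraries: leaving out either replicate of Cr A x Cr B, or replicate 1 of Cr B x Cr A, left 0 in both directions, and leaving out replicate 2 of Cr B x Cr A left 19 and 26. With 3 libraries the fit had fewer residual degrees of freedom.

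In the 3 genes named on the Cr A side, Cr A bases made up most intron reads in both directions of the cross, while exon reads were mostly maternal in every library. At scaffold 6, the gene at 9534165 to 9536550 had intron shares of 97.3%, 91.9%, 18.2% and 15.6% at a single site and exon shares of 73.1%, 65.2%, 74.9% and 79.4% (log2 difference 3.55 ± 0.43 SE, adjusted p = 0.000408). At scaffold 3, 8126200 to 8129077, a gene with 10 intron sites had 98.1%, 97.1%, 17.5% and 12.8% against 76.8%, 72.6%, 57.6% and 66.6% (log2 3.53 ± 0.40 SE, adjusted p = 0.000267). Its fitted value was 12.31 with only the sites over 100 bp from listed exons, which is not read as a larger difference. Its neighbouring intron sites 8127539 and 8127549 had no Cr B read, with 5 and 18 reads each in the Cr B x Cr A libraries. At scaffold 6, 4181723 to 4183578, a gene with 3 intron sites had 93.9%, 97.0%, 21.0% and 25.8% against 65.3%, 67.3%, 82.7% and 68.1% (log2 3.48 ± 0.37 SE, adjusted p = 0.00022). Exon shares of the crosses did not overlap in any of the 3 genes either, but they lay much closer together. They leaned to Cr A, as the introns did, in the scaffold 3 gene, and to Cr B in the scaffold 6 genes. How often exon shares of the crosses did not overlap over all tested genes was not computed. The median share over exon sites was also higher in Cr B x Cr A (70.1% and 72.8%) than in Cr A x Cr B (68.9% and 66.9%).

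On the Cr B side the pattern was turned around in the leading genes: the exons were one-sided and the introns lay near dosage. These leading genes were among the 11 of 98 called genes with the exon ratio further from equality. The gene at scaffold 4, 2651305 to 2653862, on the minus strand, had exon shares of 100%, 100%, 0% and 0% over 197, 754, 133 and 297 reads. No Cr B read appeared among these 1381 exon reads, counted at 2 exon sites over 4 libraries, which allows up to 0.217% by counting error alone. Its intron reads were 66.7%, 74.1%, 66.1% and 67.0% maternal over 87, 197, 62 and 230 reads (adjusted p = 8.51e-05). The introns were not uniform. The 3 sites 228 to 423 bp from the gene start carried both alleles, and the other two, 1950 and 1982 bp from the start, carried only Cr A bases in 16 and 21 reads, as the exons did.

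A second such gene, at scaffold 7, 9777736 to 9779396, gave exon shares of 96.9%, 96.4%, 16.9% and 24.9% and intron shares of 67.6%, 77.9%, 70.7% and 82.4% (log2 -3.55 ± 0.39 SE, adjusted p = 0.000265). At scaffold 6, 8047831 to 8052485, the direction was that of the introns: they gave 59.0%, 6.41%, 93.5% and 100%, beside exon shares of 62.2%, 59.8%, 71.9% and 75.8%. Its replicates of Cr A x Cr B disagreed, and the call (log2 -2.78 ± 0.72 SE, adjusted p = 0.0373) was lost without any one library (adjusted p from 0.164 to 0.246). The fitted value was -4.01, -1.88, -7.02 and -2.20 without Cr A x Cr B replicates 1 and 2 and the reverse cross's replicates 1 and 2. The intron reads of that gene came mainly from adjacent sites at 8051564 and 8051565, which share their reads.

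**Figure D5:**
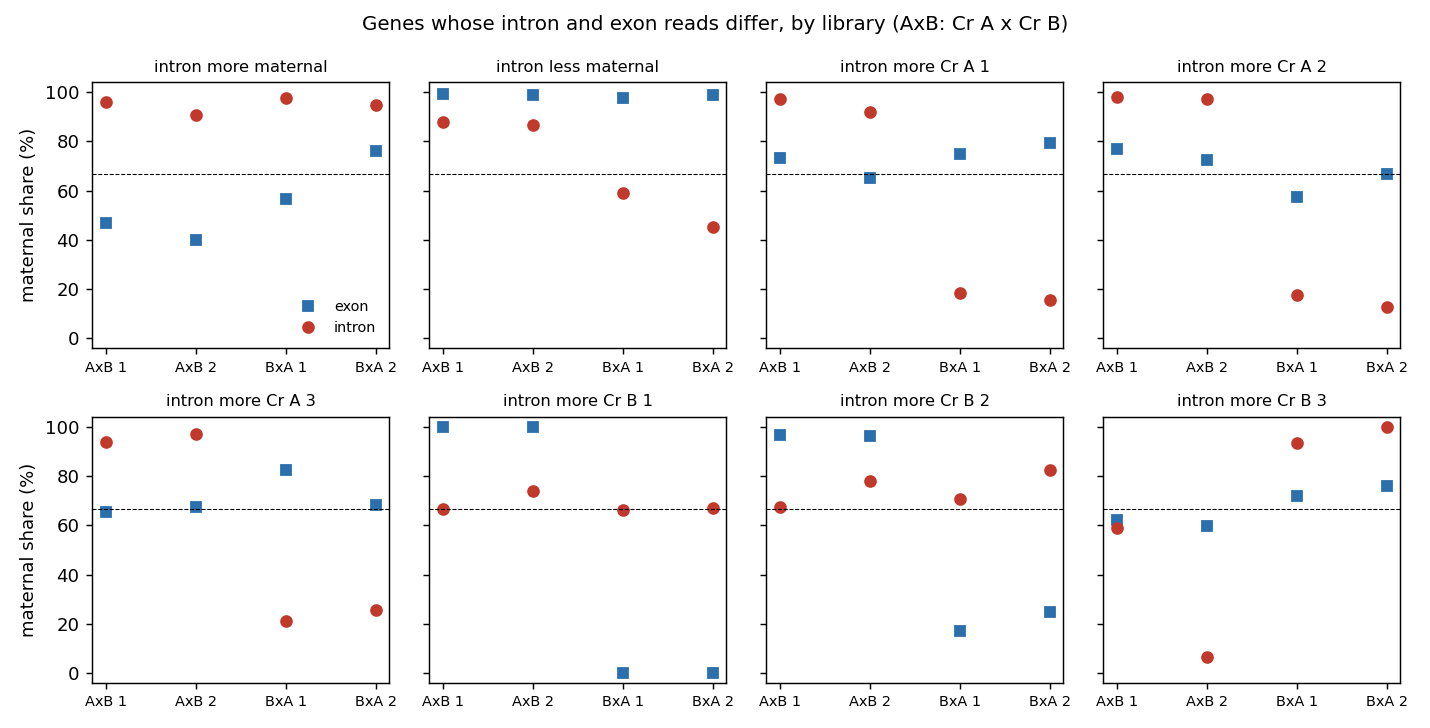
Maternal share (vertical axis, %) of summed exon reads (squares) and intron reads (circles) in each library (horizontal axis) for 8 genes called in the test of intron against exon, in the order parental calls, more Cr A in introns, more Cr B in introns. The dashed line marks 66.7%. In the Cr A genes the circles lie much further apart between the crosses than the squares, and in the first and second Cr B genes the squares lie much further apart than the circles.

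Total reads at intron sites did not differ detectably between the directions of the cross. Of 2513 intron sites with enough reads, 0 were called by edgeR's quasi-likelihood test and 0 by DESeq2, as were 0 of all 35353 tested sites (0.0%). At an unadjusted p below 0.05 there were 36 intron sites (1.43%) and 593 of all tested sites (1.68%), and the smallest adjusted p at an intron site was 1.0.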

How the data were processed

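Per the submitters' processing notes, Trimmomatic, Bowtie 1.0 and TopHat were used; their roles and order, the build and the SNP calling are not given in the sources used here. The authors deposited, for each endosperm library, read counts of each base at listed SNPs, all whole numbers. Per the file headers, their 2 further tables, filed under the leaf DNA samples, hold maternal and paternal read counts per SNP, gene and exon intervals and a p-value per SNP. The table columns matched one library each at 99.99% of sites or more and any other at 5.27% or fewer, so they gave the parental base, and reads were taken from the library files. At 7 sites, none in introns, the bases conflicted. Leaf DNA reads were not analysed here.

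The quasi-likelihood test of edgeR 4.0.16 (R 4.3.3) was run per site on maternal and paternal counts of each library. The 8 columns were fitted with terms for library, accession and parent and a 2 to 1 offset (2 residual degrees of freedom), at a minimum of 20 reads in each cross and a Benjamini-Hochberg threshold of 0.05 over all sites. Intron against exon used 16 columns per gene, with library by region, library by parent, parent by region and accession by region terms. Totals used TMM and filterByExpr. DESeq2 1.42.0 was an alternative. Standard errors were the log2 value over the square root of F. The main edgeR fits per site and of intron against exon were tested on simulated counts, and the other fits were not. Medians and figures used Python 3.11.15.

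Named sites had a call and 50 reads or more in each library: the 6 per direction of parental and 3 of accession bias with the largest log2 value, 1 per gene. Named genes were the 5 and 3 per direction by the same rule in the intron against exon tests. The 5 most-read sites and the 3 genes with most intron sites were added. Gene lists for imprinted, endosperm, seed coat and embryo genes could not be matched, since the intervals have no names. Members and lists were chosen with earlier results of these data known. Alternatives were other read minimums, DESeq2, a replicate block, narrower sets of sites, another null and each library left out.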

Additional observations from a re-analysis of the deposited data

Results flagged for a closer look

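At 5 of the 36 intron sites called for parental bias, the parental ratio also differed between the directions of the cross, by the accession term of the same fit (edgeR quasi-likelihood test, adjusted p below 0.05). The term is given as log2 of Cr A over Cr B.

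At scaffold 1, position 5064623, maternal shares were 100% and 100% in Cr A x Cr B and 72.2% and 88.9% in Cr B x Cr A (term 3.84, adjusted p = 0.0378), with 18 and 9 reads in the latter. At scaffold 2, position 8546052, they were 56.0%, 31.6%, 0.833% and 0% (term 3.19, adjusted p = 0.00684), while the exons of that gene stayed between 18.9% and 27.7%. At scaffold 3, position 4842853, they were 18.9%, 11.3%, 51.3% and 56.5% (term -1.36, adjusted p = 0.0466), beside exon shares of 16.7% to 35.7%. At scaffold 4, position 7513233, they were 28.0%, 26.1%, 100% and 100% (term -6.71, adjusted p = 0.000305), as in its exons. At scaffold 7, position 11099178, they were 0.926%, 0.847%, 5.36% and 12.3% (term -1.67, adjusted p = 0.0288), below 66.7% in both directions.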

How the results depend on the processing

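No call and no fitted value of a named site or gene changed direction under the alternatives tried. The intron minus exon difference in maternal share did in single libraries: summed reads turned it in each Cr B x Cr A library (69.0% against 69.9% and 71.1% against 72.0%), and gene medians in Cr A x Cr B replicate 2 (-0.58 points). Called intron sites, more and less maternal, numbered 12 and 6 at a minimum of 50 reads and 47 and 19 with no filter on low counts, and DESeq2 called 38 more maternal. Sites from Cr A and Cr B numbered 69 and 67 at a minimum of 50 reads and 172 and 246 with no filter. Between listed exons, 0.839% of sites were more maternal, 8.39% from Cr A and 11.6% from Cr B. Leaving out 1 library gave 8 to 16 more maternal and 4 to 7 less maternal sites, 46 to 72 from Cr A and 32 to 74 from Cr B.

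In the test of intron against exon, genes with more and less maternal introns numbered 0 and 0 with sites between listed exons, 2 and 0 with sites over 100 bp from listed exons, 0 and 0 with no accession by region term, and 0 to 1 each with 1 library left out; with no filter and under DESeq2, 2 were more maternal. Genes with introns more Cr A and more Cr B numbered 26 and 30 with sites between listed exons and 0 to 19 and 0 to 26 with 1 library left out, and 34 were more Cr B at a minimum of 50 reads. Summing reads over sites gave mean maternal shares of 67.6% and 70.1% for the crosses. The cause of these changes was not tested, except that narrower sets, higher minimums and fewer libraries leave fewer sites or degrees of freedom.

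With the replicate number as a block, 14 sites were more and 7 less maternal, and in the test of intron against exon 2 and 2 genes were called by parent and 68 and 91 by accession. Among named sites the block ended the call at scaffold 3, position 1257613 (adjusted p = 0.164). No label says what a replicate number stands for: deviations of same-numbered libraries correlated at 0.28 for log2 reads and 0.0 for the parental ratio over 1807 sites. Of the values computed for the 14 named site results, where 1 site counts under both parent and accession, 125 stayed on their side of the threshold and 15 did not, and for the 8 named genes 64 did and 26 did not. Depth limits the set: 38.5% of intron sites had at most 4 reads in all, and 12.7% could be tested.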

Other observations

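Pairs of intron sites in one gene were read side by side. Over 36 genes with outermost intron sites more than 100 bp apart, the fitted accession log2 ratios of the pair had a Pearson r of 0.81 and a Spearman rho of 0.74, and the parental ratios had 0.46 and 0.29. These are descriptions across genes, whose sites share libraries.

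Intron sites and calls were spread over the 8 largest scaffolds, which held 14063 of the 14177 sites. Calls for parental bias per scaffold ran from 3 of 273 tested sites on scaffold 3 to 7 of 168 on scaffold 4. Calls by accession ran from 17 of 155 on scaffold 8 to 53 of 279 on scaffold 6, with 39 of 184 on scaffold 2. Bases of neither parent made up 0.118% of intron calls, 0.0954% of exon calls in the same genes and 0.127% of calls outside genes.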
